A study of Mus musculus with 6 samples.

Results

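The data are the values of Alb, Afp and Gc, the albumin gene family, in nuclei labelled as hepatocytes, from wild-type (WT) female mice of the C57BL/6J strain that had been mated at about 8 weeks of age. The members were taken by name, 3 of 40824 genes in the deposited tables. Nuclei were profiled one by one with Smart-seq3xpress, a plate-based full-length RNA-seq method, on day 0 of gestation (G0), late in gestation at G14.5, named for its day, and on day 7 after birth in lactating mothers (P7L). Each stage had 1 library labelled perfusion and 1 labelled liver tissue, in that order. G0 had 184 and 252 nuclei, G14.5 had 301 and 224, and P7L had 298 and 308. The labels name no animals, so p-values measure the spread between these 6 libraries only, and all share the strain, the sex and the genotype. Although the library names speak of nuclei, the extraction protocol given for all 6 libraries describes perfused, picked hepatocytes.

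Albumin, made from Alb in the liver, is the main protein of blood plasma and carries fatty acids, hormones and drugs. Afp encodes alpha-fetoprotein, its counterpart in the fetus, which the liver largely stops making after birth. Gc encodes the vitamin D binding protein, which carries vitamin D and binds actin set free by damaged cells. The genes arose by duplication and stay neighbours. On GRCm38 they lie on chromosome 5, with Alb from 90460897 to 90476602 and Afp from 90490737 to 90508907 on the plus strand, 14134 bases apart. Gc lies 1002998 bases before Alb, from 89417522 to 89457898 on the minus strand. The fourth gene of the cluster measured here, Afm, which encodes the vitamin E binding protein afamin, begins 10024 bases after Afp. The annotated antisense gene Gm43449 overlaps Afp, and since the use of strand in counting is not given in the sources used here, reads of the pair may not be told apart.

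The 250 bases before each RefSeq start (GRCm38.p6) are shown because all 3 promoters hold the letters GTTAATNAT, the core of the element bound by the liver factor HNF1, which is in capitals.
Alb (chr5:90460620-90460869, plus strand): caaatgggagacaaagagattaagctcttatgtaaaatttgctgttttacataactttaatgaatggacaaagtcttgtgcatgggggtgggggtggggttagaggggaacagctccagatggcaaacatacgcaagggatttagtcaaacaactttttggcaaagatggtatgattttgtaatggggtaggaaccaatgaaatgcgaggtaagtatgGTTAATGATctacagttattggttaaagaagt
Afp (chr5:90490464-90490713, plus strand): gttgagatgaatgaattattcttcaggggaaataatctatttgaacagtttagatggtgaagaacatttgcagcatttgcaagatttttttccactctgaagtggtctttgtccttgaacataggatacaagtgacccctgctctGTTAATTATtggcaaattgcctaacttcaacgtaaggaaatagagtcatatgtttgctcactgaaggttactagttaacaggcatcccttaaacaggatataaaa
Gc (chr5:89457899-89458148, minus strand): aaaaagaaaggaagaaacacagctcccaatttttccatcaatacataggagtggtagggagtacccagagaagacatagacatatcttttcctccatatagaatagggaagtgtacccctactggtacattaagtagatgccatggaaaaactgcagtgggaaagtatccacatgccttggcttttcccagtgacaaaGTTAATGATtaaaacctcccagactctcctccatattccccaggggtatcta
Counted back from the start, the match lies from -32 to -24 in Alb, from -105 to -97 in Afp and from -52 to -44 in Gc. It is also in the Afm promoter, from -138 to -130. The gene positions given further above are from GENCODE. Its starts lie downstream of the RefSeq starts in Alb and Afp, upstream in Afm and at the same base in Gc. The distances of the matches thus depend on the annotation. Of 32851 promoters of the same length, 242 (0.737%) held these letters on either strand. TTATGTAA, the element of the factors Dbp, Tef and Hlf, was found in the Alb promoter alone of these 3, once on each strand from -223 to -216 and from -204 to -197, and in 0.819% of all promoters. The motifs were chosen after these sequences had been seen, and a match is not a measured binding site.

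Totals ran from 226030591 to 379767336 reads per library and median reads per nucleus from 731494 to 1191576. No nucleus column occurred in more than 1 library. Of the 10 hepatocyte markers, 9 had reads in every library and together held 1.07% to 1.28% of reads; Trf was listed at or near 0. Each list of non-hepatocyte markers other than the fetal one held at most 0.0191% of reads. Of 7 markers of fetal hepatoblasts, Igf2, Dlk1 and H19 lay at or near 0 in every library. The list's sum was 0.0275% and 0.0281% of reads at G14.5, against 0.00206% and 0.00251% at G0, nearly all of it Peg3, and its part in the results below was not tested. Placental lactogen genes lay at or near 0 throughout. Spike-in rows held 0 reads, so every level below is relative to the other RNA of the nucleus.

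Levels of different genes were compared on the authors' length-scaled values, a per-length scale like TPM. Alb had 613 and 684 units at G0, then 1055 and 1392 units at G14.5, then 1136 and 1117 units at P7L, perfusion first. It ranked between 5 and 9 among 40824 genes. Gc had 231 and 231 units at G0, then 222 and 263 units at G14.5, then 189 and 189 units at P7L, at ranks 30 to 42. Afp had 3.48 and 4.11 units at G0, then 7.01 and 6.61 units at G14.5, then 5.66 and 6.54 units at P7L, at ranks 2650 to 4695. The order Alb, Gc, Afp held in all 6 libraries without overlap. The ratio of Alb to Gc was 2.65 and 2.96 at G0, then 4.75 and 5.29 at G14.5, then 6.01 and 5.91 at P7L. The ratio of Alb to Afp ran from 151 to 211.

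**Figure D1:**
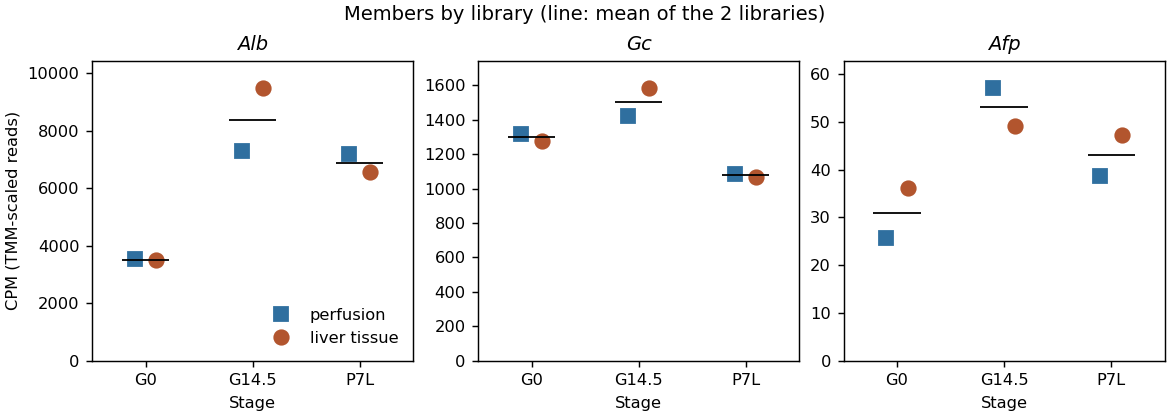
Normalised read counts (CPM, reads scaled to the TMM library size; linear axes from 0) of Alb, Gc and Afp by stage, 1 point per library and a line at the mean of the 2 libraries. The 4 Alb points at G14.5 and P7L, 6551 to 9480 CPM, lie above the 2 at G0, 3544 and 3496 CPM.

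The first comparison asks how pregnancy changes the hepatocyte. Normalised read counts are given as CPM, reads scaled to the TMM library size. Alb had 7307 and 9480 CPM at G14.5, against 3544 and 3496 CPM at G0 (perfusion and liver tissue in this order, here and below). Both G14.5 libraries lay above both G0 libraries, and the share of all genes parted in this way was not counted. Alb rose 2.38-fold (log2 fold change 1.25 ± 0.13 SE, n = 2 libraries each, edgeR adjusted p = 0.00245). Of the 3 members, Alb was the 1 called at an adjusted p under 0.05, where 11.9% of 15015 tested genes were called (6.93% higher and 5.01% lower). The log2 ratio was 1.04 within perfusion and 1.44 within liver tissue. The call was lost on the authors' values with a pseudocount of 1 (0.90, limma adjusted p = 0.0905) and with the earlier nucleus numbers of each library alone (0.64, described further on). As a share of all reads, Alb took 0.664% and 0.899% at G14.5, against 0.359% and 0.351% at G0.

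Gc had 1418 and 1582 CPM at G14.5, against 1317 and 1278 CPM at G0. The groups stood close and the difference was not called (0.21 ± 0.11, edgeR adjusted p = 0.249). Afp had 57.0 and 49.1 CPM at G14.5, against 25.7 and 36.0 CPM at G0. Its difference, 0.80 ± 0.24, missed the threshold (edgeR adjusted p = 0.0728; unadjusted p = 0.0121). DESeq2 gave the same size at an adjusted p of 0.0106, and thinning each nucleus to 250000 reads gave 0.93 (adjusted p = 0.0267). Without 1 library at a time the value ran from 0.51 to 1.1 and was not called by edgeR; it was lowest without G14.5 perfusion (0.51, edgeR adjusted p = 0.387) and was 0.58 without G0 perfusion (edgeR adjusted p = 0.207).

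The second comparison sets lactating mothers against G0. Alb had 7188 and 6551 CPM at P7L, against 3544 and 3496 CPM at G0, and rose 1.95-fold (0.97 ± 0.13, edgeR adjusted p = 0.0223), where 2.92% of tested genes were called (1.56% higher and 1.36% lower). The ratio was alike within both preparations, 1.02 in perfusion and 0.91 in liver tissue. Without the P7L perfusion library the value was 0.80 and the call was lost (edgeR adjusted p = 0.158), as it was with the earlier nucleus numbers alone (0.27). Gc had 1083 and 1069 CPM at P7L, against 1317 and 1278 CPM at G0, lower in both preparations but not called (-0.27 ± 0.11, edgeR adjusted p = 0.208). Afp had 38.6 and 47.3 CPM at P7L, against 25.7 and 36.0 CPM at G0 (0.48 ± 0.24, edgeR adjusted p = 0.293).

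Between lactation and pregnancy, Gc alone was called among the members, where 9.26% of tested genes were (4.2% higher and 5.06% lower). It had 1083 and 1069 CPM at P7L, against 1418 and 1582 CPM at G14.5, and fell by 0.48 ± 0.11 on the log2 scale (edgeR adjusted p = 0.0358). The call was lost without any 1 of the 4 libraries of these stages, with values from -0.58 to -0.38. Alb had 7188 and 6551 CPM at P7L, against 7307 and 9480 CPM at G14.5 (-0.28 ± 0.13, edgeR adjusted p = 0.256); the difference was -0.02 within perfusion and -0.53 within liver tissue. Afp gave -0.32 ± 0.24 (edgeR adjusted p = 0.483). The 3 comparisons share libraries in pairs, so they are not independent of each other.

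No member was called between the preparations. Perfusion minus liver tissue was -0.07 ± 0.11 for Alb, -0.03 ± 0.09 for Gc and -0.19 ± 0.20 for Afp on the log2 scale (edgeR adjusted p = 0.972, 0.98 and 0.971). For Alb it was -0.48 in the later of 2 blocks of nucleus numbers described further on (edgeR unadjusted p = 0.00419, adjusted p = 0.993) and 0.07 in the earlier one. Of all tested genes, 0 (0%) were called by edgeR, 707 had an unadjusted p under 0.05, and DESeq2 called 87.

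All nuclei had reads of Alb and of Gc, also after thinning each to 250000 reads, which left out 35 shallower nuclei. Alb was spread widely over the nuclei at G0. There the upper quartile was 6.04 (perfusion) and 4.18 (liver tissue) times the lower one. At G14.5 these ratios were 1.63 and 1.68, and at P7L 1.98 and 1.69. Much of the G0 spread lay between 2 blocks of nucleus numbers described further on. Within these blocks the ratio was 2.09 to 2.78 at G0, against 1.48 to 1.93 at the other stages. The median nucleus had 2847 (95% interval 2181 to 3861) and 3344 (2627 to 4091) CPM at G0. It had 6618 (6188 to 6857) and 7867 (7312 to 8563) CPM at G14.5, and 7157 (6460 to 7855) and 7359 (6874 to 7622) CPM at P7L. These intervals cover the count of nuclei, not the spread between animals. In the extreme nucleus, in P7L liver tissue, Alb took 9.88% of all reads. Gc varied less by stage, with quartile ratios from 1.76 to 2.27 and medians from 1069 to 1417 CPM.

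**Figure D2:**
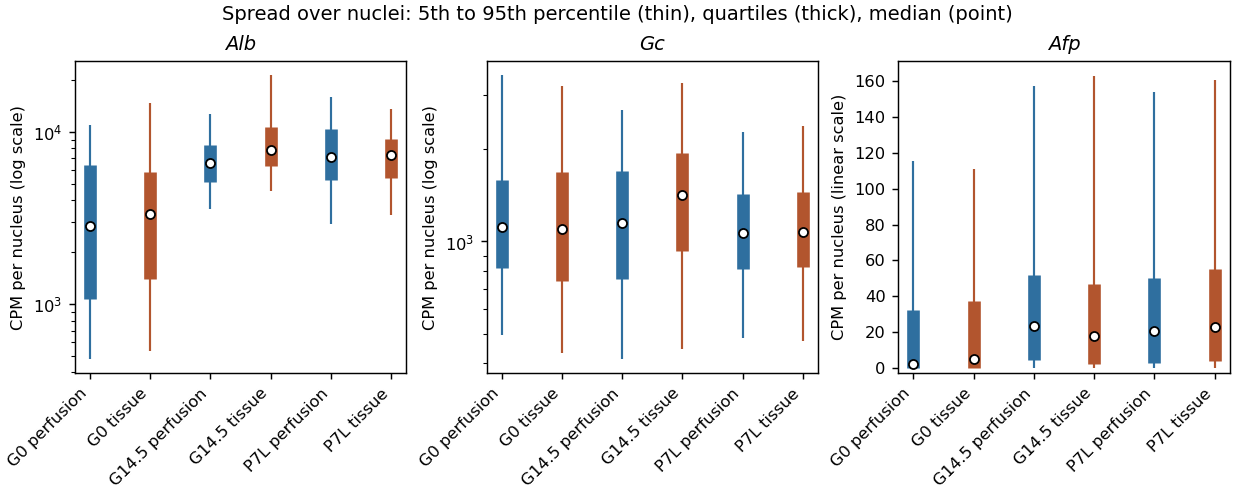
CPM per nucleus of Alb and Gc (log axes) and Afp (linear axis) in the 6 libraries: thin lines span the 5th to 95th percentile, thick bars the quartiles and points the median. The lower quartile of Alb is 5141 CPM or more in the libraries of the later stages, against 1067 and 1393 CPM at G0.

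Afp was patchy. After thinning, 90 of 181 (49.7%, exact 95% interval 42.2 to 57.2) and 132 of 237 nuclei (55.7%, 49.1 to 62.1) had an Afp read at G0. At G14.5 the counts were 232 of 300 (77.3%, 72.2 to 81.9) and 161 of 224 (71.9%, 65.5 to 77.7). At P7L they were 224 of 296 (75.7%, 70.4 to 80.5) and 232 of 294 (78.9%, 73.8 to 83.4). The 4 libraries of G14.5 and P7L lay above both G0 libraries, with intervals that did not overlap. These intervals cover the count of nuclei in a library, not the spread between animals, so they do not test the stages. The share of all genes parted in this way was not counted. After thinning to a greater depth the shares were 55.1% and 68% at G0, against 78.0% to 82.7% at the later stages. The separation did not hold in each block of nucleus numbers described further on. In G0 liver tissue 69.7% (60.7 to 77.7) of nuclei had an Afp read in the later numbers and 40.9% (31.8 to 50.4) in the earlier ones, and the first of these lay close to the 71.4% to 79.9% of the blocks at G14.5 and P7L. In G0 perfusion the shares were 52.2% (41.4 to 62.9) and 47.3% (36.7 to 58.0). Among nuclei with Afp reads the median was alike, 7.5 to 8.5 thinned reads in all 6 libraries. The 10% of nuclei with the most Afp held 48.2% to 65.0% of its reads, against 21.1% to 32.0% for Alb and 24.3% to 28.7% for Gc. A nucleus reached at most 1083 CPM of Afp, in P7L liver tissue. The deposited counts are reads, so these shares count detection and not molecules.

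**Figure D3:**
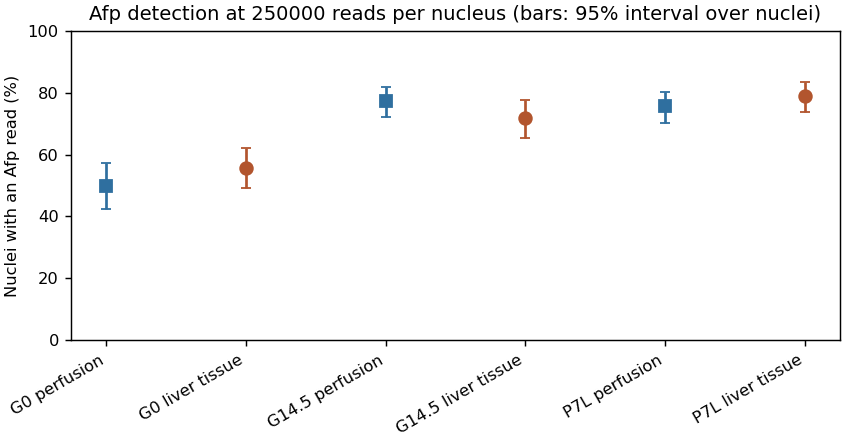
Share of nuclei with at least 1 Afp read after thinning to 250000 reads, in percent from 0 to 100, with exact 95% intervals over nuclei. The libraries of the later stages stand between 71.9% and 78.9%, against 49.7% and 55.7% at G0.

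The low nuclei of Alb at G0 were not scattered evenly over the libraries. Columns are numbered within each library, and the labels do not say what the numbering follows. When each library's numbers were split into 2 equal blocks, a step chosen after the pattern had been seen, Alb at G0 was far lower in the later one. In G0 perfusion the summed level was 1426 CPM in numbers 93 to 184, against 5686 CPM in numbers 1 to 92. In G0 liver tissue it was 2006 CPM in numbers 127 to 252, against 6571 CPM in numbers 1 to 126. The later block thus held 0.251 and 0.305 times the level of the earlier one. These CPM, like those per nucleus, are not TMM-scaled. Of 15015 genes, 910 (6.06%) differed past 2-fold in the same direction in both G0 libraries. Alb was among the 435 (2.9%) that were lower in the later numbers, and 475 (3.16%) were higher.

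At the other stages the step was smaller. Alb had 5384 against 8417 CPM in G14.5 perfusion, later numbers against earlier ones, and 5593 against 9597 CPM in P7L perfusion. It had 8212 against 9752 CPM in G14.5 liver tissue and 7287 against 6847 CPM in P7L liver tissue. All 3 perfusion libraries were therefore lower in the later numbers, by 0.251 to 0.640 times, whereas liver tissue ranged from 0.305 to 1.06 times. Past 2-fold in both libraries there were 1.99% of genes at G14.5 (0.992% higher and 0.999% lower) and 2.05% at P7L (0.892% higher and 1.16% lower), and no member was among them. Gc differed less than Alb did at G0, at 0.808 to 1.09 times in the 6 libraries. Afp ranged from 0.592 to 1.55 times with no common direction.

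**Figure D4:**
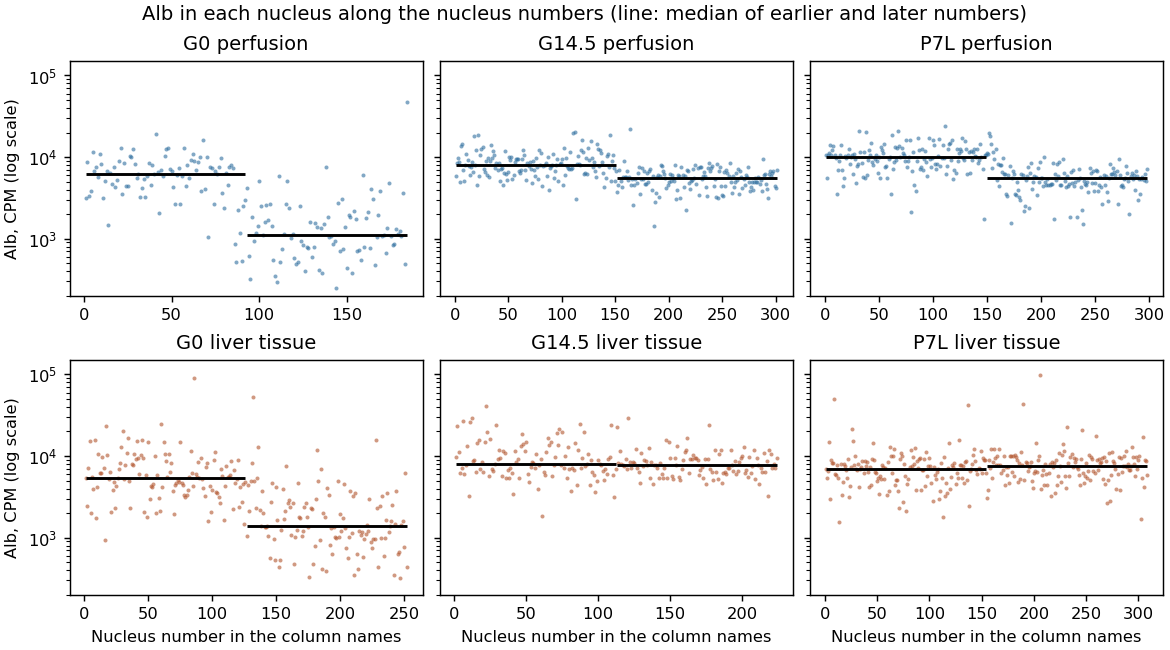
Alb CPM of each nucleus (log axis) against its number in the column names, 1 panel per library, with black lines at the medians of the earlier and later numbers. In G0 perfusion and G0 liver tissue the later medians are 1125 and 1403 CPM, against 6260 and 5456 CPM in the earlier numbers.

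Nuclei under 2000 CPM of Alb, a limit set after seeing the values, numbered 76 of 184 (41.3%, exact 95% interval 34.1 to 48.8) in G0 perfusion and 87 of 252 (34.5%, 28.7 to 40.7) in G0 liver tissue. At G14.5 there were 1 and 1, and P7L had 6 and 3. Of those at G0, 70 and 79 lay in the later numbers, against 6 and 8 in the earlier ones. Low nuclei were sequenced more deeply, with median reads of 1293800 against 1071400 for the other nuclei in G0 perfusion and 1155600 against 577310 in G0 liver tissue. Their median Gc, 1094 and 1106 CPM, was close to that of the other nuclei, 1118 and 1093 CPM. Depth itself differed between later and earlier numbers in G0 liver tissue (medians 1162388 against 488595 reads) but little in G0 perfusion (1191247 against 1161532). Hepatocyte markers summed to 1.02% of reads in the later numbers and 1.37% in the earlier ones of G0 perfusion, and to 1.18% and 1.48% in G0 liver tissue. Endothelial markers were lower too, with 0.00131% of reads in the later and 0.00604% in the earlier numbers of G0 perfusion, and 0.00102% and 0.00405% in G0 liver tissue. Lymphocyte markers took 0.000214% and 0.000643% in G0 perfusion, and 0.000216% and 0.000696% in G0 liver tissue. Macrophage and cholangiocyte markers were also lower in the later numbers of both G0 libraries. Stellate cell and fibroblast markers went both ways, with 0.00293% and 0.00131% in G0 perfusion, and 0.000861% and 0.00229% in G0 liver tissue. So did erythroid markers, with 0.000221% and 3.25e-05% in G0 perfusion, and 0.000116% and 0.00253% in G0 liver tissue. The part of depth, of these markers or of the numbering in the Alb levels was not tested.

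The stage comparisons were refitted within each block of numbers. The blocks were chosen after the low Alb of the later G0 numbers had been seen, and the p-values do not allow for this. What the numbering follows is not given, so later numbers of different libraries need not be alike. In the later numbers Alb gave 2.08 ± 0.15 for G14.5 against G0 (edgeR adjusted p = 0.00156) and 1.83 ± 0.15 for P7L against G0 (edgeR adjusted p = 0.00848). In the earlier numbers it gave 0.64 ± 0.19 (edgeR adjusted p = 0.106) and 0.27 ± 0.19 (edgeR adjusted p = 0.512), so that neither was called there. The difference between blocks was not tested. Afp gave 0.55 in the later and 1.05 in the earlier numbers for G14.5 against G0 (edgeR adjusted p = 0.478 and 0.115). Gc gave -0.40 and -0.59 for P7L against G14.5 (edgeR adjusted p = 0.267 and 0.0933).

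**Figure D5:**
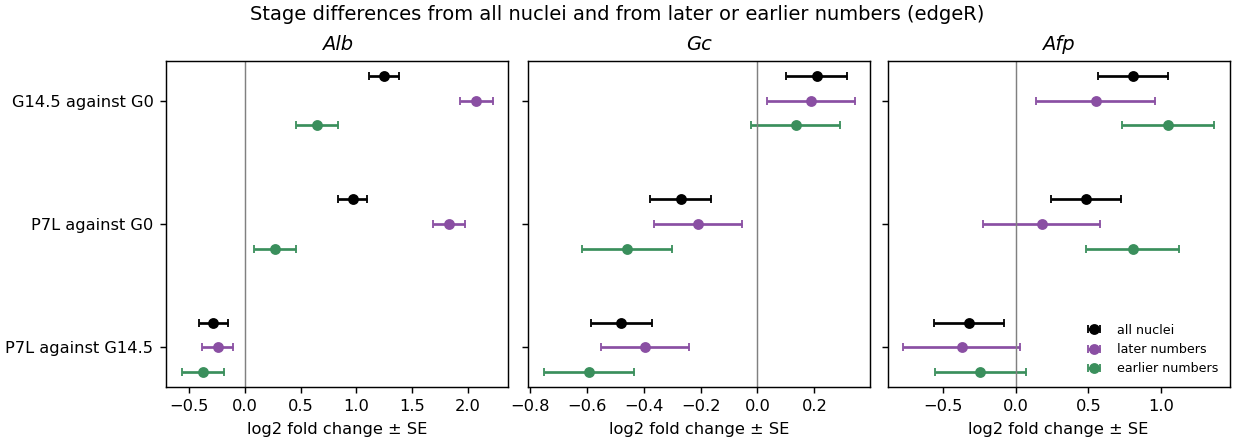
Log2 fold changes with SE (edgeR, 2 libraries per stage) of Alb, Gc and Afp in the 3 stage comparisons, from all nuclei and from the later or earlier numbers of each library. For G14.5 against G0, Alb stands at 1.25 from all nuclei, 2.08 from later and 0.64 from earlier numbers.

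The genes most like Alb over nuclei were abundant secreted proteins as well. Over 4178 candidate genes, the mean of the within-library Spearman correlation on thinned reads was highest for Apoa2 (0.623), Apoa1 (0.590), Apoc3 (0.568), Serpina1b (0.536) and Apoe (0.524), which encode apolipoproteins and an alpha-1-antitrypsin. Within the blocks of numbers these means ran from 0.357 to 0.473. Reads of Serpina1b can be shared with near-identical copies. Apoa1 was lower in the later numbers of every library, but not in the order of Alb. Later against earlier numbers, it stood at 0.437 times in G0 perfusion and 0.230 times in G0 liver tissue, and at 0.357 and 0.354 times in G14.5 and P7L perfusion, below its ratio in G0 perfusion. Apoa2 was at 0.810 and 0.178 times, past 2-fold in G0 liver tissue and not in G0 perfusion. Of the 21 tested genes of other abundant hepatocyte proteins, 4 were lower past 2-fold in both G0 libraries (Apoa1, Fabp1, Fga and Fgb) and 0 were higher. Of all tested genes, 2.9% were lower and 3.16% higher in this way.

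Gc was most alike to Alb (mean Spearman correlation 0.226), then to the hydroxysteroid dehydrogenase family genes Hsd17b13 (0.205) and Hsd17b6 (0.201), the fibrinogen gene Fgg (0.200) and Cyp2f2 (0.196). Within the blocks of numbers the means were 0.204, 0.204, 0.203, 0.178 and 0.189 in the same order, so Alb did not stand apart there. The Spearman correlation between Alb and Gc ran from 0.111 to 0.389 over the 6 libraries. Over their blocks it ran from -0.0202 (later numbers of G0 perfusion) to 0.446 (earlier numbers of G14.5 liver tissue). Between Alb and Afp the correlation ran from -0.171 to 0.0683 over the 6 libraries, and for Afp no gene passed a mean of 0.130. Between Alb and the total reads of a nucleus, it ran from -0.519 to -0.176 over the libraries. The lowest value, in G0 liver tissue, became -0.149 within its later and -0.192 within its earlier numbers. In G0 perfusion it went the other way, from -0.303 to -0.402 in the later and -0.401 in the earlier numbers. Over the blocks of all 6 libraries it ran from -0.402 to -0.124. Nuclei of 1 library share their source and depth, so these values are descriptions.

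Over the 6 libraries the 5 genes with the highest Pearson r to Gc in log2 CPM were Sep15, Rbpj, Gpd2, Il6st and Calm2, with r from 0.989 to 0.997 among 5743 candidates. Those of Afp were Nt5m, Osbpl9, Snx29, Stam2 and Eftud1 (0.979 to 0.988). With 6 points and 5743 genes such values are a ranking only.

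Along the liver lobule, blood runs from the portal to the central vein and hepatocytes differ in their tasks. Nuclei were ranked in each library by their share of pericentral among pericentral and periportal marker reads, and the most pericentral of 3 equal parts was set against the most periportal one. Alb was lower in the pericentral part in 5 of 6 libraries, with the exception of G0 liver tissue. The log2 difference was -0.43 ± 0.22 (edgeR adjusted p = 0.474, 6 libraries), where 2.58% of 14987 genes were called (1.54% higher and 1.04% lower). In G0 perfusion Alb had 1521 CPM in the pericentral part and 5730 CPM in the periportal part. There 50 of 62 pericentral nuclei but 22 of 61 periportal nuclei came from the later numbers. Without that library the difference was -0.15 (edgeR adjusted p = 0.424). Ranking within each block of numbers gave -0.40 ± 0.09 (edgeR adjusted p = 0.0489). Gc was lower in the pericentral part in 6 of 6 libraries (-0.26 ± 0.08, edgeR adjusted p = 0.168) and Afp in 4 of 6 (-0.22 ± 0.17, edgeR adjusted p = 0.673). Afm too was lower in 6 of 6 (-0.39 ± 0.11, edgeR adjusted p = 0.115). The share of all genes with the same direction in all 6 libraries was not counted.

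Nuclei with reads of at least 3 of 10 cell cycle genes numbered 0 and 3 at G0, then 14 and 23 at G14.5, then 24 and 20 at P7L. Alb was lower in them than in the other nuclei of their library at the later stages, with 5941 against 7161 CPM in G14.5 perfusion, 7745 against 9665 CPM in G14.5 liver tissue, 6528 against 8112 CPM in P7L perfusion and 6959 against 7464 CPM in P7L liver tissue. In G0 liver tissue Alb was higher in the 3 cycling nuclei, with 5455 against 4468 CPM. Afp in G14.5 liver tissue had 27.3 CPM in cycling nuclei and 46.9 CPM in the others, and 48.6 and 47.8 CPM in G14.5 perfusion. At P7L it had 37.3 CPM in cycling nuclei and 40.9 CPM in the others in perfusion, and 32.6 and 49.7 CPM in liver tissue. Gc had 1449 CPM in cycling nuclei and 1319 CPM in the others in G14.5 perfusion, and 1608 and 1592 CPM in G14.5 liver tissue. At P7L these values were 1163 and 1182 CPM in perfusion, and 1446 and 1161 CPM in liver tissue. The numbers of nuclei are small and no test was made.

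Of 19 tested activators of the Alb and Afp promoters, 5 fell and 1 rose at G14.5 against G0 (edgeR; 8 and 1 at an unadjusted p under 0.05, and 8 and 1 by DESeq2), where 5.01% of all tested genes were lower and 6.93% higher. The median log2 fold change was -0.52 beside -0.01 over all genes tested. DESeq2 called more genes in every stage comparison, 3429 of 15015 at G14.5 against G0, 1901 at P7L against G0 and 2631 at P7L against G14.5. The factors Dbp, Tef and Hlf, which bind the element found at 2 places in the Alb promoter and cycle over the day in liver, all fell while Alb was higher. Dbp had 3.94 and 3.52 CPM at G14.5, against 13.9 and 14.0 CPM at G0 (-1.91 ± 0.30, edgeR adjusted p = 0.00909). Hlf had 103 and 84.4 CPM at G14.5, against 237 and 279 CPM at G0 (-1.47 ± 0.17, edgeR adjusted p = 0.00295). Tef fell by 1.34 on the log2 scale, and Nfib, a nuclear factor I gene, by 0.51. The 1 that rose with Alb was Foxa3, a forkhead factor of the liver (1.06 ± 0.24, edgeR adjusted p = 0.0314). Foxa3 had 201 and 225 CPM at G14.5, against 79.2 and 126 CPM at G0. It gave 1.06 in the later and 0.99 in the earlier numbers and was called in neither (edgeR adjusted p = 0.174 and 0.0514). Of the 19, Onecut1, Dbp and Nfix were higher past 2-fold in the later numbers of both G0 libraries, where Alb was lower, and 0 were lower. Of all tested genes, 3.16% were higher and 2.9% lower in this way. Dbp stood at 3.00 times in G0 perfusion and 3.08 times in G0 liver tissue, later against earlier numbers. Its difference at G14.5 against G0 was -1.88 in both blocks (edgeR adjusted p = 0.0448 in the later and 0.0638 in the earlier numbers). Hlf gave -1.15 in the later and -2.14 in the earlier numbers (edgeR adjusted p = 0.0564 and 0.00424). Tef gave -1.63 and -0.88 (edgeR adjusted p = 0.00916 and 0.228), and Nfib -0.73 and -0.25 (edgeR adjusted p = 0.0555 and 0.336). The labels give no hour of sampling.

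At P7L against G14.5, 4 activators rose and 3 fell (edgeR; 8 and 4 at an unadjusted p under 0.05, and 6 and 3 by DESeq2), where 4.2% of all tested genes were higher and 5.06% lower. Dbp had 25.7 and 22.5 CPM at P7L, against 3.94 and 3.52 CPM at G14.5 (2.69 ± 0.30, edgeR adjusted p = 0.00264). Tef (1.28) and Hlf (1.17) rose too, and Foxa3 fell by 1.66. In the later numbers Tef gave 1.197, Hlf 0.67 and Foxa3 -1.68 (edgeR adjusted p = 0.0271, 0.256 and 0.0772). In the earlier numbers they gave 1.42, 2.11 and -1.66 (edgeR adjusted p = 0.0907, 0.00497 and 0.0111). At P7L against G0, edgeR called 0 higher (1 at an unadjusted p under 0.05, and 1 by DESeq2) and 2 lower (9 at an unadjusted p under 0.05, and 5 by DESeq2; 1.36% of all tested genes were lower). These were Hnf4a (-0.73 ± 0.13, edgeR adjusted p = 0.0369) and Nfia (-0.63 ± 0.11, edgeR adjusted p = 0.0317). Neither was called within a block of numbers. Hnf4a gave -1.03 in the later and -0.34 in the earlier numbers (edgeR adjusted p = 0.0846 and 0.382). Nfia gave -0.73 and -0.57 (edgeR adjusted p = 0.131 and 0.109). Hnf4a encodes the nuclear receptor that drives many liver genes.

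Zhx2 and Zbtb20, which repress Afp in adult mouse liver, were named after their values were seen and were called in no stage comparison. Zhx2 had 106 and 147 CPM at G0, then 158 and 122 at G14.5, then 158 and 137 at P7L. Zbtb20 had 3384 and 3730 CPM at G0, then 4152 and 3730 at G14.5, then 3567 and 3580 at P7L. Of the 8 tested genes of this list, the orphan nuclear receptor gene Nr2f2 fell (-1.44) and the lipoprotein lipase gene Lpl, a target of Zhx2 in mouse liver, rose (2.52) at G14.5 against G0. Of all tested genes, 5.01% were lower and 6.93% higher there. Lpl was low, with at most 5.29 CPM in any library, and was also lower past 2-fold in the later numbers of both G0 libraries. Within the blocks its difference was 4.73 in the later and 1.6 in the earlier numbers and was called in neither (edgeR adjusted p = 0.169 and 0.344). Nr2f2 gave -0.998 in the later and -1.955 in the earlier numbers for G14.5 against G0 (edgeR adjusted p = 0.0906 and 0.0132). Nfil3, a repressor that binds the same element as Dbp, fell by 1.34 at P7L against G14.5, where 5.06% of all tested genes were lower and 4.2% higher. Nfil3 gave -1.84 in the later and -1.11 in the earlier numbers (edgeR adjusted p = 0.0363 and 0.123). At P7L against G0 edgeR called 0 of the 8, beside 2.92% of all tested genes. There 2 of the 8 had an unadjusted p under 0.05 and 1 was called by DESeq2, all lower.

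Of the 6 tested genes of vitamin D handling, edgeR and DESeq2 called 0 in each stage comparison. Over all tested genes edgeR called 11.9% at G14.5 against G0, 2.92% at P7L against G0 and 9.26% at P7L against G14.5. At P7L against G0, 2 were higher and 1 lower at an unadjusted p under 0.05, and in the other comparisons 0 were. Actb, the gene of the actin that Gc protein binds, fell at each step, with 428 and 597 CPM at G0, then 231 and 234 at G14.5, then 105 and 108 at P7L. The log2 fold changes were -1.12 ± 0.16 for G14.5 against G0 and -2.25 ± 0.16 for P7L against G0 (edgeR adjusted p = 0.00608 and 0.00305). Its reads can be shared with pseudogene copies. Actb was also 1 of the 435 genes lower past 2-fold in the later numbers of both G0 libraries. Its difference for G14.5 against G0 was -0.47 in the later and -1.63 in the earlier numbers (edgeR adjusted p = 0.299 and 0.0186). For P7L against G0 it was -1.37 and -2.99 (edgeR adjusted p = 0.0703 and 0.0123).

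Of 9 tested genes of albumin recycling and disulfide folding, 3 rose and 0 fell at G14.5 against G0 (edgeR; 6 and 0 at an unadjusted p under 0.05, and 5 and 0 by DESeq2), where 6.93% of all tested genes were higher and 5.01% lower. Pdia3, a disulfide isomerase of the endoplasmic reticulum, had 195 and 198 CPM at G14.5, against 82.0 and 66.5 CPM at G0 (1.41 ± 0.17, edgeR adjusted p = 0.00359). Its relative Pdia6 (1.78) and the translocon gene Sec61a1 (1.69) rose with it. At P7L against G14.5, 5 of the 9 fell and 0 rose (7 and 0 at an unadjusted p under 0.05, and 5 and 0 by DESeq2), beside 5.06% of all tested genes lower and 4.2% higher, among them Pdia3 (-1.77), Pdia6 (-2.14), Sec61a1 (-1.32) and Ero1lb (-1.08). At P7L against G0 edgeR called 0, beside 2.92% of all tested genes, with 1 higher and 1 lower at an unadjusted p under 0.05, and DESeq2 called 1 higher. None of the 9 differed past 2-fold between later and earlier numbers in both G0 libraries, beside 6.06% of all tested genes. Pdia6 stood at 0.425 times in G0 perfusion and 0.576 times in G0 liver tissue. At G14.5 against G0 it gave 2.285 in the later and 1.25 in the earlier numbers (edgeR adjusted p = 0.0174 and 0.0853). Pdia3 and Sec61a1 were called there in both blocks. At P7L against G14.5 Ero1lb gave -1.35 and -0.66 and was called in neither (edgeR adjusted p = 0.0657 and 0.271). Sec61a1 gave -1.28 and -1.41 (edgeR adjusted p = 0.0519 and 0.0349).

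Of 21 tested genes of other abundant hepatocyte proteins, 9 rose and 2 fell at G14.5 against G0 by edgeR, beside 6.93% of all tested genes higher and 5.01% lower, with a median of 0.36 beside -0.01 over all genes. In lactation against G0, 1 rose and 2 fell, beside 1.56% and 1.36% of all tested genes, with a median of -0.32 beside 0.01. At P7L against G14.5, 1 rose and 11 fell, beside 4.2% and 5.06%, with a median of -0.55 beside -0.002. Fabp1, the fatty acid binding protein of hepatocytes, rose by 0.78 and the fibrinogen gene Fga by 0.79 at G14.5, whereas Apoc1 fell by 0.97. In the later numbers Fabp1 gave 1.86 and Fga 0.93 (edgeR adjusted p = 0.00745 and 0.0404). In the earlier numbers they gave 0.08 and 0.55 and were not called (edgeR adjusted p = 0.793 and 0.195). Apoc1 was called in the earlier numbers (-1.28, edgeR adjusted p = 0.0397) but not in the later ones (-0.77, edgeR adjusted p = 0.189). At P7L against G0, Ahsg (-0.91) and Fgg (-0.83) fell while Alb rose. Within the blocks Ahsg gave -0.68 in the later and -1.19 in the earlier numbers (edgeR adjusted p = 0.187 and 0.0397). Fgg gave -0.61 and -1.19 (edgeR adjusted p = 0.179 and 0.0869). Serpina1e rose at G14.5 and at P7L against G0, by 5.48 and 1.04, with reads that near-identical copies can share. Its rise at P7L was 1.65 in the later and 0.32 in the earlier numbers and was called in neither (edgeR adjusted p = 0.08 and 0.408). Of 7 tested neighbours of the loci, Afm included, edgeR called 1 in the 3 stage comparisons, Slc4a4 (-0.47 ± 0.11 at G14.5 against G0, edgeR adjusted p = 0.0391). For that comparison Slc4a4 gave -0.13 in the later and -0.97 in the earlier numbers (edgeR adjusted p = 0.745 and 0.0253). Of all tested genes, edgeR called 11.9% in that comparison, 2.92% at P7L against G0 and 9.26% at P7L against G14.5. DESeq2 called 1 lower at G14.5 against G0 and 1, Afm, lower at P7L against G0. Afm itself had 725 and 750 CPM at G0, then 716 and 546 at G14.5, then 464 and 509 at P7L, and was called in none by edgeR (adjusted p = 0.358, 0.083 and 0.194 for G14.5 against G0, P7L against G0 and P7L against G14.5). Its difference was -0.60 at P7L against G0 (unadjusted p = 0.00507) and -0.37 at P7L against G14.5 (unadjusted p = 0.0431).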

How the data were processed

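Per the submitters' processing notes, the authors' tools were Trimmomatic 0.39, HISAT2 2.1.0 and featureCounts 1.5.3, and the build was GRCm38; the deposited read counts are raw, per gene and nucleus. A deposited TPM-like table divides each count by a length and scales each nucleus to 100000 without 3 genes, Alb, Apoa2 and Fabp1, as worked out from its values (totals with them 100214 to 134901); members were compared between stages on counts for this reason. The 92 ERCC rows held 0 reads. Counts were summed over all 1567 nuclei by library, without a doublet caller. Genes passing filterByExpr by stage, with reads in at least 5% of nuclei of at least 2 libraries, were tested with edgeR 4.0.16 (R 4.3.3; TMM, robust quasi-likelihood F test, stage and preparation as terms, two-sided), with 2 residual degrees of freedom and Benjamini-Hochberg adjustment over 15015 genes. Scripts were tested on simulated data. The zonation test used 12 sums with library as a term and left out the index genes. Intervals for shares are Clopper-Pearson, for medians exact binomial, at 95%, and cover counting only. Alternatives used DESeq2 1.42.0 and limma 3.58.1, among others. Members and gene lists were chosen with earlier results of these data known. Named list genes are at most the 4 called genes with the smallest p per list and comparison; genes most alike are the first 5. Genes that complete a count in the later and earlier numbers, the marker genes, Zhx2, Zbtb20 and, at G14.5 against G0, Foxa3 were named after their values were seen. Promoter sequences are from RefSeq, with all 3 members matched by symbol. The genes most alike to Alb over the 6 libraries are not reported here.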

Additional observations from a re-analysis of the deposited data

Results flagged for a closer look

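Within a stage, the 2 preparations differed in opposite directions at different stages. For Alb, the log2 ratio of perfusion to liver tissue was -0.376 at G14.5, against 0.0197 at G0, and it was 0.134 at P7L, against -0.376 at G14.5. For Afp it was 0.215 at G14.5, against -0.488 at G0, and -0.292 at P7L, against 0.215 at G14.5. For Gc it was -0.158 at G14.5, against 0.0437 at G0, and 0.0192 at P7L, against -0.158 at G14.5. Each value rests on 1 library per stage and preparation, so these differences were not tested.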

How the results depend on the processing

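Of 19 alternatives per result, the difference of Alb at G14.5 against G0 kept its direction in all and its call in 17, that of Alb at P7L against G0 in 14, and that of Gc at P7L against G14.5 kept its call in 7. Library size without Alb, Apoa2 and Fabp1 is not counted, since TMM scaling brings it back to the same values. On the authors' values with a pseudocount of 1, Alb gave 0.90 at G14.5 and 0.80 at P7L against G0 and Gc -0.35 at P7L against G14.5 (limma adjusted p = 0.0905, 0.169 and 0.199). With a pseudocount of 0.1, Alb at P7L gave 0.80 and Gc -0.35 (limma adjusted p = 0.0882 and 0.166). With filterByExpr alone, Alb at P7L gave 0.97 and Gc -0.48 (edgeR adjusted p = 0.0624 and 0.0563), and Gc gave -0.48 without a filter. Scaled by library size alone, Gc gave -0.28 where the median gene stood at 0.199, and with nuclei weighted equally it gave -0.28 where the median gene stood at 0.155. In blocks of numbers chosen after seeing the data, Alb in the earlier numbers gave 0.64 and 0.27, and Gc gave -0.40 in the later and -0.59 in the earlier numbers, all without a call. Afp at G14.5 against G0 was called by DESeq2 (0.80), after thinning (0.93), with nuclei weighted equally (0.83) and on the authors' values (0.71 and 0.83 with pseudocounts of 1 and 0.1).

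Leaving out 1 library at a time gave 1.01 to 1.48 for Alb at G14.5 against G0, 0.80 to 1.12 at P7L against G0, 0.51 to 1.1 for Afp at G14.5 against G0 (edgeR adjusted p = 0.0554 to 0.387), and -0.58 to -0.38 for Gc at P7L against G14.5; a lone library is assumed to vary like the others. Perfusion minus liver tissue, called for no member, turned positive for Alb without either G14.5 library (-0.18 to 0.08 over all, with 0.0722 and 0.0768 as the positive values) and in the earlier numbers (0.0738, against -0.48 in the later ones), and for Gc (-0.0772 to 0.0315, with 0.0269 and 0.0315, and 0.0219 in the earlier numbers). Alb in the pericentral part was called when ranked within blocks of numbers (-0.40). The cause was not tested in any of these.

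The number of genes called at G14.5 against G0, 1793, became 3429 with DESeq2, 706 and 794 in the later and earlier numbers and 661 to 1885 without 1 library. At P7L against G0, 438 became 1901 with DESeq2, 775 after thinning, 227 without a filter, 92 with filterByExpr alone, 6 with a pseudocount of 1, 99 and 74 in the later and earlier numbers and 46 to 609 without 1 library. At P7L against G14.5, 1390 became 2631, 488 and 583, and 450 to 2350 in the same order for DESeq2, the blocks and the libraries. DESeq2 called 87 genes between preparations and 1125, in place of 387, between zones, where leaving out 1 library gave 225 to 383. By library size alone the higher and lower calls were 891 and 1101 at G14.5 against G0 (in place of 1040 and 753), 309 and 172 at P7L against G0 (234 and 204) and 1048 and 551 at P7L against G14.5 (630 and 760). The reported fit has preparation as a term; with no such replicate block Alb gave 1.25 and 0.96 against G0, Gc gave -0.48, and no member's call changed. The share of nuclei with Afp reads depends on depth and ranged from 33.7% to 85.4% over the libraries, thinning depths and read minimums tried.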
